A study of Mus musculus with 6 samples.

Results

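The collagen genes of the mouse inguinal lymph node were described in 6 RNA-seq libraries. They were taken as the rows of the deposited table whose symbol has the form Col, a type number, a and a chain number. The table held 44 such symbols, and the 42 with a read in at least 1 library were kept, out of 28727 genes with a read. Col25a1 and Col9a1 had no read in any library. Of the 42 genes, 29 had a mean level of 1 CPM or more (a gene's reads scaled to a library total of 1000000 reads assigned to genes) and were tested, and the other 13 are given as reads.

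The study compared 3 lymph node samples labelled Naringin with 3 labelled Control. Naringin, a flavanone glycoside of grapefruit, was fed daily at 200 mg/kg mixed into the food. Both groups share the tissue and the library kit. The labels used here state neither strain, sex, age nor feeding time, nor what Control mice ate. They also do not say whether replicates were separate animals, so p-values measure only the spread between these samples, which may be technical. The libraries held 13074180 to 14976422 reads, and a single read was worth 0.0668 to 0.0765 CPM. Control 3 stood apart from the other libraries in gene length and base composition: its log2 values fell by 0.13 per doubling of transcript length relative to the mean of the libraries, against slopes of -0.013 to 0.063 in the other libraries. Cd3e, a defining T cell gene, was present in every library, at 156 to 248 CPM with naringin and 207 to 231 CPM in Control.

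Collagens are trimers of chains that wind around each other into a triple helix. Fibrillar collagens (types I, III and V among them) assemble into the fibres of connective tissue, type IV collagen forms the sheet-like network of basement membranes, and type VI collagen forms beaded microfilaments around cells. The fibril-associated collagens with interrupted helices (FACIT collagens) decorate fibres, and transmembrane collagens sit in the plasma membrane. In a lymph node, fibroblastic reticular cells lay down a mesh of collagen fibres wrapped in basement membrane, the conduit system that carries lymph fluid through the T cell zone. The capsule and the walls of vessels hold collagen as well.

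The range of collagen transcript levels among the Naringin libraries enclosed all 3 controls. All 42 genes together took 0.194%, 0.104% and 0.0662% of the reads in Naringin 1, 2 and 3, and 0.0948%, 0.0747% and 0.105% in Control 1, 2 and 3. Naringin 1 thus held the most collagen reads and Naringin 3 the least, with all 3 controls between them. In summed CPM the Naringin libraries averaged 1213 ± 654 and the Control libraries 915 ± 154 (SD, n = 3 each), a ratio of 1.33 that became 0.932 without Naringin 1 and 1.63 without Naringin 3. These are bulk samples, in which more collagen-producing cells and more collagen RNA per cell cannot be told apart.

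By limma on log2(CPM + 1), 0 of the 29 tested collagen genes passed an adjusted p of 0.05, and 0% of all 14873 tested genes did and the smallest adjusted value among the collagens was 0.9996. Only Col9a3 reached an unadjusted p under 0.05, and it was higher with naringin. Of all tested genes 1.43% reached it in either direction and 0.975% with a higher level. On the recovered reads, edgeR and DESeq2 also called 0 collagen genes, against 0% and 0.0202% of all tested genes. Each put 1 collagen under an unadjusted 0.05, Col9a3 in edgeR and Col4a2 in DESeq2, against 1.57% and 1.53% of all tested genes. The log2 fold was above 0 in 23 of the 29 genes and below 0 in 6, with a median of 0.17, against 56.7% above 0 and a median of 0.02 over all tested genes. This direction rested on Naringin 1: without it 7 genes were above 0 and 22 below, with a median of -0.15. Without Naringin 3 the median was 0.50, and without Control 3 it was 0.27. The limma fit without Naringin 1 put 0 collagens under an unadjusted 0.05, against 0.888% of all tested genes. Without Naringin 3 it put Col3a1, Col4a2, Col4a5 and Col6a6 there, against 3.45%. Without Control 3 it put Col11a2 alone there, against 9.35%, and called 0 collagens, against 0.00672%. The groups did not overlap in 2 genes that were higher with naringin, Col9a3 and Col23a1, against 3.36% of all tested genes, and in 1 that was lower, Col17a1, against 2.29%. Over both directions the share of all tested genes without overlap was 5.65%.

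The pattern shared by most members lay among the libraries. Naringin 1 had the highest value of the 6 libraries in 22 of the 29 tested collagen genes, against 19.4% of all tested genes. Naringin 3 had the lowest value in 16 of the 29, against 13.99% of all tested genes. Both held together in 15 of the 29 genes, 51.7%, against 6.47% of all tested genes. Within the Naringin group, the level in Naringin 1 was a median of 2.13 times that in Naringin 3 over the collagen genes and 1.00 times over all tested genes. The SD of the log2 values was larger in the Naringin group than in the Control group in 23 of the 29 genes, against 33.9% of all tested genes. Members of 1 tissue share their cells and their library, so their counts are not independent observations.

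**Figure D1:**
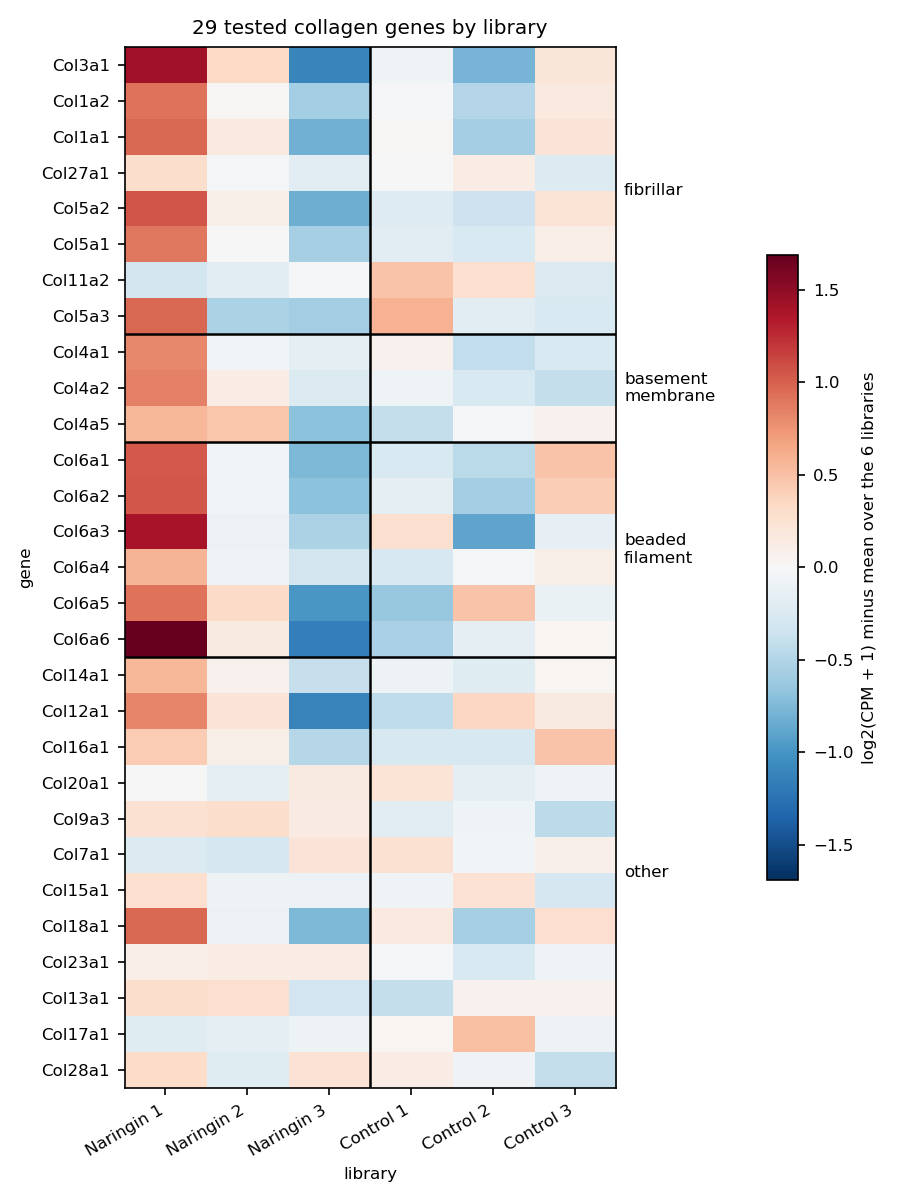
Each row is 1 of the 29 tested collagen genes, ordered by class and each column 1 library, and the colour gives log2(CPM + 1) minus the gene's mean over the 6 libraries. Naringin 1 is red in most rows of the fibrillar, basement membrane and beaded filament classes and Naringin 3 is blue in most of them, while Col11a2, Col20a1, Col7a1 and Col23a1 do not follow that order.

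The fibrillar class held 11 genes, 8 of them tested, and made up 52.3% of the collagen CPM. It was led by Col3a1, which encodes the chain of type III collagen, the main collagen of reticular fibres, and by Col1a2 and Col1a1, which encode the chains of type I collagen, the main collagen of the capsule and of dense connective tissue. Col3a1 had 491, 233 and 84.7 CPM in Naringin 1, 2 and 3, and 175, 106 and 213 CPM in Control 1, 2 and 3. It had the highest mean of the family and spanned 5.80-fold between Naringin 1 and Naringin 3, a range that enclosed all 3 controls. The Naringin group averaged 269.6 ± 205.5 CPM and the Control group 165 ± 54.2 CPM (SD, n = 3 each), and the log2 fold was 0.43 ± 0.56 (SE) with an unadjusted limma p of 0.464. Col1a2 had 266, 144 and 94.8 CPM with naringin, and 138, 100.3 and 158 CPM in Control. Col1a1 had 148, 84.7 and 42.6 CPM with naringin, and 76.6, 50.5 and 87.9 CPM in Control. Naringin 1 was highest and Naringin 3 lowest in both genes, with Control 3 next to Naringin 1, and the log2 folds were 0.24 ± 0.35 for Col1a2 and 0.22 ± 0.41 for Col1a1 (SE). Without Naringin 1 the log2 folds of Col3a1, Col1a2 and Col1a1 were -0.17, -0.15 and -0.21, and without Naringin 3 they were 1.09, 0.59 and 0.67. Col1a1 also stood at -0.01 without Control 2.

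The promoter windows of Col3a1 and Col1a2 are shown because these are the most abundant collagen genes and both were highest in Naringin 1 and lowest in Naringin 3. The windows run from 250 bases before to 50 bases after the annotated start in RefSeq (build GRCm38.p6), read 5′ to 3′ on the strand of the gene, at chr1:45311288-45311587 on the plus strand for Col3a1 and chr6:4505368-4505667 on the plus strand for Col1a2. Capitals mark matches on either strand to the CCAAT box (CCAAT), the TATA box (TATAAA) and the GC box (GGGCGG).
Col3a1: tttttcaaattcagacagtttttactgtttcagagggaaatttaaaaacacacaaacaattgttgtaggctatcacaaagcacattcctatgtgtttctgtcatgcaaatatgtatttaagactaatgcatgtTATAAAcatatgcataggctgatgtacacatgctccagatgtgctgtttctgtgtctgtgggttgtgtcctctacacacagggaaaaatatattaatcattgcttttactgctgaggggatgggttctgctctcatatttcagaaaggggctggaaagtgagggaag
Col1a2: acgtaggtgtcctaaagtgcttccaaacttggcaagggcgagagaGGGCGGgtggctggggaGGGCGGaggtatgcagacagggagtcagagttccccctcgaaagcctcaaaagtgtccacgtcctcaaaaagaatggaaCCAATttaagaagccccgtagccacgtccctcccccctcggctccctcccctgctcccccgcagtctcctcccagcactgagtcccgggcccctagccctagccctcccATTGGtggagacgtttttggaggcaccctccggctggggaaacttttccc
The Col3a1 window, with 37.7% G and C, held a TATAAA match and no match to CCAAT or GGGCGG. That match begins at base -117 relative to the annotated start. The Col1a2 window, with 61.0% G and C, held 2 CCAAT and 2 GGGCGG matches and no TATAAA match. Its CCAAT matches begin at bases -109 and 1, and its GGGCGG matches at -205 and -188. Of all 32851 windows of this length, 37.4% held CCAAT, 13.6% held TATAAA and 35.7% held GGGCGG; of 35 windows of 33 collagen genes, 11, 5 and 22 held them. Such a match is a description of the letters and shows no binding.

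Type V collagen, which is built into type I fibres and limits their width, followed the same order of libraries in part. Col5a1, Col5a2, Col5a3 and Col27a1, and Col11a1, Col2a1 and Col24a1 below, lie outside the naming rule and were chosen after their values were seen. Col5a2 had 57.1, 28.8 and 14.7 CPM with naringin, and 22.9, 20.8 and 31.7 CPM in Control, and Col5a1 had 34.8, 18.2 and 12.05 CPM with naringin, and 15.99, 15.1 and 19.7 CPM in Control. In both genes Naringin 1 was highest and Naringin 3 lowest. Col5a3, a less abundant chain, had 9.78, 2.80 and 2.66 CPM with naringin, and 7.27, 3.83 and 3.61 CPM in Control, so that Control 1 came second to Naringin 1. Col27a1, a fibrillar collagen known mainly from cartilage, was more even, with 42.3, 33.4 and 30.2 CPM with naringin, and 34.5, 37.4 and 29.1 CPM in Control. Its highest value was 1.46 times its lowest.

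Col11a2, which encodes a chain of the cartilage collagen of type XI, went against its class. It had 14.4, 15.8 and 17.9 CPM in Naringin 1, 2 and 3, and 25.6, 22.1 and 15.04 CPM in Control 1, 2 and 3. Naringin 1 was the lowest library, and the groups overlapped through Control 3 alone. The log2 fold was -0.34 ± 0.21 (SE), with an unadjusted limma p of 0.137, and it was -0.55 without Control 3 and -0.18 without Control 1. Its partner Col11a1 had 1, 2 and 1 reads with naringin and 0 reads in each control. Col2a1, the chain of the major cartilage collagen, had 0 reads in each Naringin library, and 0, 4 and 0 reads in Control 1, 2 and 3. Col24a1, a minor fibrillar collagen, had 11, 2 and 1 reads with naringin, and 3, 1 and 3 reads in Control. Of the chondrocyte markers examined, Acan had no read in any library and the 4 markers summed to 1.54 to 3.42 CPM with naringin and 1.91 to 4.21 CPM in Control.

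**Figure D2:**
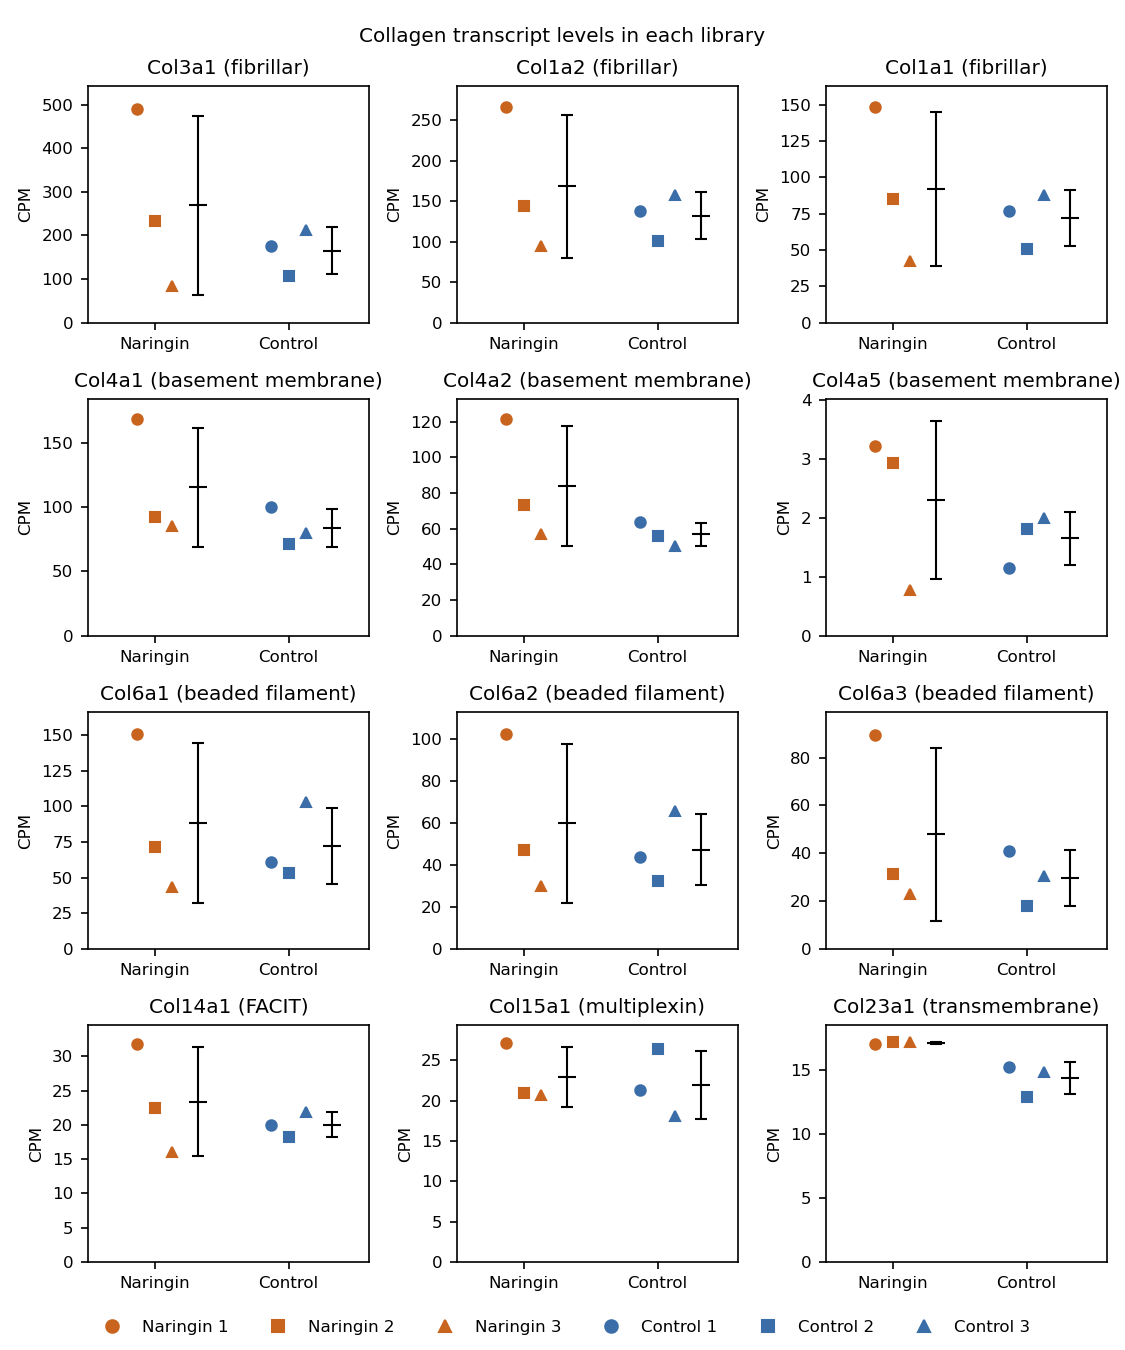
CPM of 12 collagen genes in each library, with the symbol giving the replicate number and the black bar the mean ± SD of each group (n = 3). Naringin 1 lies above all other libraries in the fibrillar, basement membrane and beaded filament genes shown, and in Col23a1 the 3 Naringin libraries lie between 17.1 and 17.2 CPM, above the controls.

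The basement membrane class held the 6 chains of type IV collagen, 3 of them tested, and 16.2% of the collagen CPM. Col4a1 and Col4a2 encode the pair of chains found in nearly all basement membranes. Col4a2 had 121, 73.4 and 57.1 CPM with naringin, and 63.6, 56.1 and 50.5 CPM in Control. Naringin 1 and Naringin 2 lay above all controls and Naringin 3 lay within their range. The means were 84.0 ± 33.5 CPM with naringin and 56.8 ± 6.58 CPM in Control (SD, n = 3 each). The log2 fold was 0.49 ± 0.25 (SE) with an unadjusted limma p of 0.0878. This p was the second smallest among the tested collagens, and the log2 fold was 0.19 without Naringin 1 and 0.73 without Naringin 3. Col4a1 had 169, 92.4 and 85.0 CPM with naringin, and 100.1, 71.5 and 79.6 CPM in Control, a log2 fold of 0.40 ± 0.26 (SE) that was 0.10 without Naringin 1. Control 1 exceeded Naringin 2 and Naringin 3 in this gene.

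Col4a1 and Col4a2 lie head to head on the genome, which is why their promoter windows are shown together. In the RefSeq annotation (build GRCm38.p6) the window of Col4a2 is at chr8:11312555-11312854 on the plus strand and that of Col4a1 at chr8:11312777-11313076 on the minus strand, so the windows share 78 bases. Each is written 5′ to 3′ on the strand of its gene, with the same motifs in capitals.
Col4a2: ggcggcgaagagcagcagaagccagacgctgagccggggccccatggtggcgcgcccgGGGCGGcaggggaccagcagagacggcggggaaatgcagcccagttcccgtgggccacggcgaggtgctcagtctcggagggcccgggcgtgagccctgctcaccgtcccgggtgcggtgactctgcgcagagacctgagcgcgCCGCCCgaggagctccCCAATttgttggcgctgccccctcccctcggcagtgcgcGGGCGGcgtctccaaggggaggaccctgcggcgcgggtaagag
Col4a1: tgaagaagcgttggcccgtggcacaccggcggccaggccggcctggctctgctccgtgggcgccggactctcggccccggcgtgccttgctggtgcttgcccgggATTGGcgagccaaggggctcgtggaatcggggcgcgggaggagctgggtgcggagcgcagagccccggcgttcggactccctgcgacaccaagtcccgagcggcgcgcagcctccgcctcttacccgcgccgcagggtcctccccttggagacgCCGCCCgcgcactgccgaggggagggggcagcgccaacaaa
The windows held 73.7% and 74.0% G and C in Col4a2 and Col4a1. The Col4a2 window held 1 CCAAT and 3 GGGCGG matches and the Col4a1 window 1 of each, with no TATAAA match in either. The most downstream GGGCGG match lies in the shared bases and is counted in both windows. The annotated exons of the pair also share 22 bases on opposite strands, and no source used here states how reads there were counted.

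Col4a5, a chain of more specialised basement membranes such as those of kidney and smooth muscle, had 3.22, 2.94 and 0.770 CPM with naringin, and 1.15, 1.81 and 2.00 CPM in Control. Naringin 3 was the lowest library and the other Naringin libraries the highest. Its log2 fold was 0.23 ± 0.35 (SE), and 0.0078 without Naringin 1. The remaining chains were close to the limit of detection. Col4a6 had 5, 5 and 4 reads with naringin, and 2, 15 and 5 reads in Control. Col4a3 and Col4a4, the partners of Col4a5 in the kidney glomerulus, had 0 to 4 reads in the Naringin libraries and 1 to 7 reads in the Control libraries.

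The beaded filament class held the 6 chains of type VI collagen, all of them tested, with 20.2% of the collagen CPM. Col6a1, Col6a2 and Col6a3 encode the classical trimer. Col6a1 had 151, 71.2 and 43.1 CPM with naringin, and 61.0, 53.3 and 103 CPM in Control. Col6a2 had 103, 47.3 and 29.9 CPM with naringin, and 43.8, 32.6 and 65.6 CPM in Control. In both genes Naringin 1 was highest, Control 3 came next and Naringin 3 was lowest. Col6a3 had 89.5, 31.4 and 23.04 CPM with naringin, and 40.8, 17.7 and 30.5 CPM in Control. Here Control 1 came second and Control 2 was lowest. Col6a3 had the highest log2 fold of the tested collagens, 0.51 ± 0.48 (SE, unadjusted limma p of 0.324), which was -0.06 without Naringin 1. The log2 folds of Col6a1 and Col6a2 were 0.16 ± 0.43 and 0.21 ± 0.42 (SE); they were -0.32 and -0.27 without Naringin 1, and -0.03 and -0.03 without Control 2.

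The other 3 chains of type VI, Col6a4, Col6a5 and Col6a6, can each take the place of the Col6a3 chain in the trimer. They lie outside the naming rule and are given because they complete the type. Col6a4 had 33.6, 21.03 and 17.7 CPM with naringin, and 18.4, 21.9 and 23.99 CPM in Control. Col6a5 had 27.8, 18.03 and 6.72 CPM with naringin, and 8.80, 20.3 and 13.1 CPM in Control. Col6a6 had 10.2, 2.87 and 0.560 CPM with naringin, and 1.38, 2.10 and 2.54 CPM in Control. Naringin 1 was highest and Naringin 3 lowest in each, and the range of Col6a6 between them, 18.2-fold, was the widest of the tested collagens. Naringin 3 held 8 reads of Col6a6, so that ratio is imprecise.

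**Figure D3:**
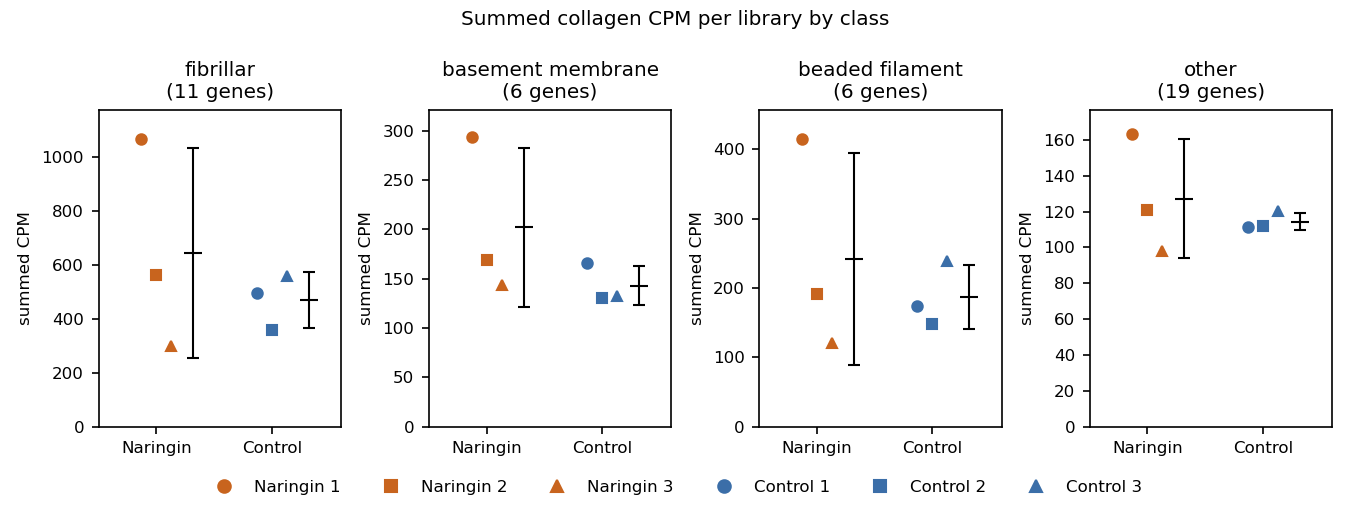
Summed CPM of the collagen genes of each class in each library, with the symbol giving the replicate number and the black bar the mean ± SD of each group (n = 3). In every class Naringin 1 is the highest library, and the Control libraries lie between the highest and lowest Naringin libraries in the fibrillar, beaded filament and other classes.

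Summed over the class, fibrillar collagens reached 1064, 561 and 300 CPM in Naringin 1, 2 and 3, and 497, 357 and 558 CPM in Control 1, 2 and 3. The ratio of the group means was 1.36, and 0.915 without Naringin 1. Basement membrane collagens reached 294, 169 and 143 CPM with naringin, and 166, 131 and 133 CPM in Control, a ratio of 1.41 that stayed above 1 without any single library, at 1.09 without Naringin 1. Beaded filament collagens reached 414, 192 and 121 CPM with naringin, and 174, 148 and 239 CPM in Control, a ratio of 1.30 that was 0.837 without Naringin 1. The 19 other collagens reached 163, 121 and 97.9 CPM with naringin, and 111, 112 and 120.1 CPM in Control, a ratio of 1.11 that was 0.956 without Naringin 1. The sums were not tested.

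Library makeup shifted along with the total. Fibrillar collagens took 55.0%, 53.8% and 45.3% of the collagen CPM in Naringin 1, 2 and 3, and 52.4%, 47.7% and 53.2% in Control 1, 2 and 3. The lowest fibrillar shares were in Naringin 3 and Control 2, the libraries with the fewest collagen reads. Basement membrane collagens took 15.2%, 16.2% and 21.7% with naringin, and 17.5%, 17.5% and 12.7% in Control. Control 3 had the lowest basement membrane share and Naringin 3 the highest.

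Among the FACIT collagens, 5 of 8 genes were tested. Col14a1, which binds the surface of type I fibrils, had 31.8, 22.4 and 16.04 CPM with naringin, and 19.96, 18.3 and 21.9 CPM in Control. Col12a1, a related fibril-associated chain of tendon and fascia, had 20.8, 13.3 and 4.62 CPM with naringin, and 8.11, 14.7 and 12.6 CPM in Control. Col16a1, another fibril-associated chain, had 14.7, 11.6 and 7.42 CPM with naringin, and 8.72, 8.75 and 15.4 CPM in Control. Naringin 3 was the lowest library in all 3 genes, and Naringin 1 was the highest in Col14a1 and Col12a1 but not in Col16a1. Their log2 folds were 0.17 ± 0.23 for Col14a1, -0.05 ± 0.46 for Col12a1 and 0.03 ± 0.29 for Col16a1 (SE). The sign of each turned when certain single libraries were left out: Col14a1 was at -0.07 without Naringin 1, Col12a1 at 0.50 without Naringin 3, at 0.11 without Control 2 and at 0.01 without Control 3, and Col16a1 at -0.17 without Naringin 1, at -0.01 without Naringin 2, at -0.09 without Control 1 and also -0.09 without Control 2.

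Col9a3, a chain of the cartilage FACIT collagen of type IX, had the smallest p of the family. It had 4.49, 4.67 and 4.06 CPM in Naringin 1, 2 and 3 (67, 70 and 58 reads), and 3.06, 3.397 and 2.41 CPM in Control 1, 2 and 3 (40, 47 and 36 reads). The lowest Naringin library exceeded the highest control. The means were 4.41 ± 0.314 CPM with naringin and 2.95 ± 0.504 CPM in Control (SD, n = 3 each). The log2 fold was 0.46 ± 0.19 (SE), with a limma p of 0.0410 unadjusted and 0.9996 adjusted. The log2 fold stayed between 0.35 and 0.54 when each library was left out in turn. The unadjusted limma p stayed under 0.05 without Control 2 (0.0431) but not without any other single library. The unadjusted p was 0.0455 in edgeR and 0.0682 in DESeq2. The annotated exons of Col9a3 share 234 bases with Tcfl5 on the opposite strand, but Tcfl5 had at most 0.0723 CPM in a library. The partner chains had few reads or none: Col9a1 had no read, and Col9a2 had 8, 10 and 1 reads with naringin, and 5, 12 and 8 reads in Control. Col20a1 was even across libraries, with 7.08 to 9.04 CPM with naringin and 7.08 to 9.64 CPM in Control. Col22a1 had 8 to 21 reads with naringin and 4 to 26 reads in Control, and Col19a1 had 2 reads, both in Naringin 2; Col9a2, Col20a1, Col22a1 and Col19a1 lie outside the naming rule.

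The multiplexins Col15a1 and Col18a1 encode collagens of the basement membrane zone, and Col18a1 is the source of the fragment endostatin. Col15a1 was among the more even members, with 27.2, 20.97 and 20.7 CPM with naringin, and 21.3, 26.4 and 18.1 CPM in Control. Col18a1 was highest in Naringin 1 and lowest in Naringin 3, with 23.99, 10.9 and 6.51 CPM with naringin, and 13.3, 7.66 and 14.6 CPM in Control. Both had log2 folds near 0, at 0.07 ± 0.18 for Col15a1 and 0.07 ± 0.42 for Col18a1 (SE). They were -0.06 and -0.40 without Naringin 1, and Col15a1 was also at -0.06 without Control 3 and Col18a1 at -0.19 without Control 2.

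The 3 transmembrane collagens were all tested, and Naringin 1 was the highest library in 1 of them, Col13a1. Col23a1, a membrane-bound collagen that can be shed from the cell surface, had 17.1, 17.2 and 17.2 CPM with naringin, and 15.3, 12.9 and 14.9 CPM in Control. The groups did not overlap. The means were 17.2 ± 0.0827 CPM with naringin and 14.4 ± 1.26 CPM in Control (SD, n = 3 each). The reads were 255, 258 and 246 with naringin, and 200, 179 and 223 in Control. The Naringin SD is close to the worth of a single read, narrower than counting alone would leave at such read numbers. The log2 fold was 0.24 ± 0.14 (SE), with an unadjusted limma p of 0.117. Col17a1, a collagen of the hemidesmosomes that anchor epithelial cells, had 18, 19 and 20 reads with naringin, and 21, 36 and 21 reads in Control. Its groups were barely apart in CPM, with 1.401 in Naringin 3 and 1.403 in Control 3, a gap smaller than a single read is worth. The log2 fold of Col17a1 was -0.30 ± 0.22 (SE), or -0.13 without Control 2. Col13a1, a collagen of cell adhesion sites, had 2.35, 2.34 and 1.19 CPM with naringin, and 1.07, 1.88 and 1.87 CPM in Control, so the groups overlapped.

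Col7a1, which forms the anchoring fibrils beneath epithelia, had 3.08, 2.94 and 4.55 CPM with naringin, and 4.74, 3.61 and 4.08 CPM in Control. Naringin 3 came close to the highest control, and the log2 fold was -0.20 ± 0.21 (SE), or -0.35 without Naringin 3. Col28a1, a collagen linked to peripheral nerve, had 3.28, 2.00 and 3.08 CPM with naringin, and 2.75, 2.31 and 1.604 CPM in Control, a log2 fold of 0.23 ± 0.23 (SE) that was 0.09 without Control 3. Col26a1 had 33, 14 and 7 reads with naringin, and 4, 3 and 13 reads in Control. Of the short-chain network collagens, Col8a1, a chain of vessel walls, had 3 to 8 reads with naringin and 4 to 6 reads in Control. Col10a1, the collagen of hypertrophic cartilage, had 1 to 4 reads with naringin and 1 to 3 reads in Control. Col8a2 had 7, 4 and 8 reads with naringin, and 1, 3 and 1 reads in Control, groups that did not overlap but rest on few reads.

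**Figure D4:**
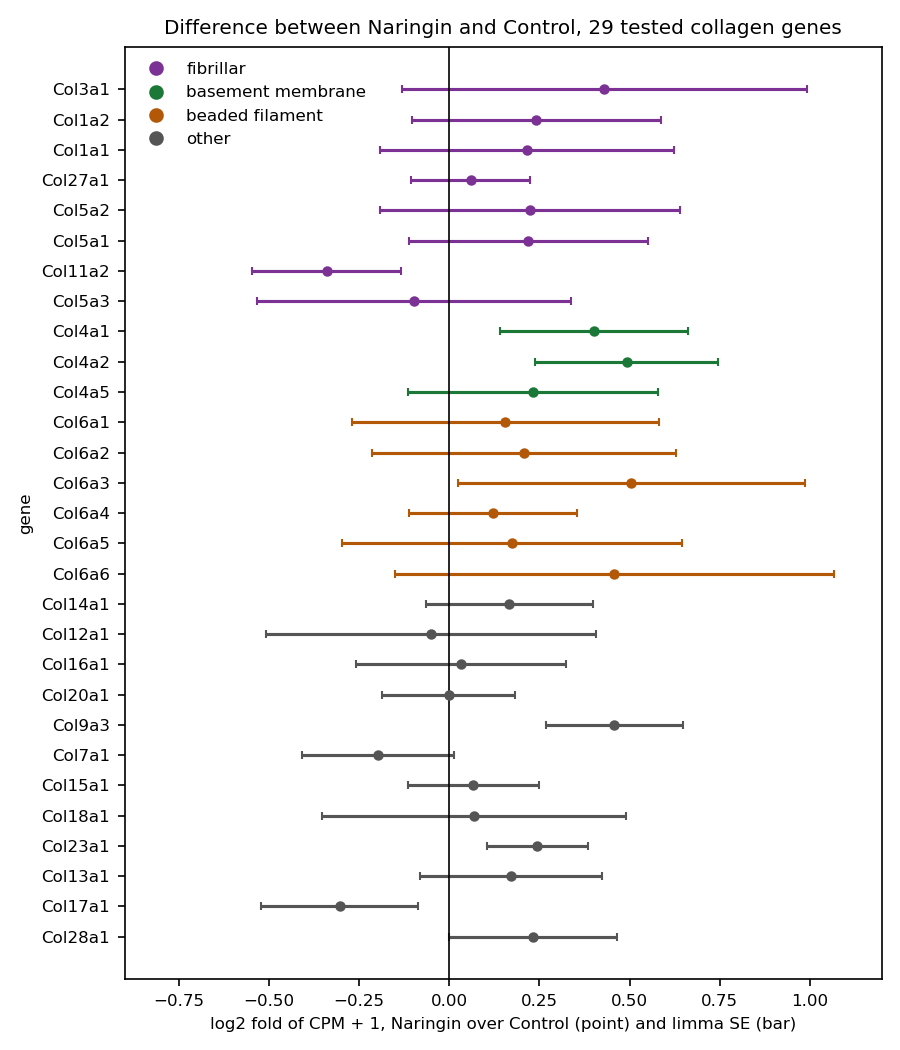
Log2 fold of CPM + 1, Naringin over Control, for the 29 tested collagen genes in class order, with bars giving the limma standard error. All points lie between -0.34 and 0.51, and the widest bars belong to genes such as Col6a6 and Col3a1 that differed most among the Naringin libraries.

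Levels of different genes were compared as CPM per kilobase of the principal transcript (GENCODE M21). Averaged over the 6 libraries, Col3a1 stood at 39.0 CPM per kilobase, Col1a2 at 28.1, Col6a1 at 19.6, Col4a1 at 15.1, Col1a1 at 13.8, Col6a2 at 13.6 and Col4a2 at 10.9. The values of neighbours in this order overlapped between libraries: Col3a1 ran from 15.2 to 88.2 CPM per kilobase and Col1a2 from 17.7 to 49.8. Every other collagen was below 5 CPM per kilobase on average, led by Col27a1 at 4.53, Col5a2 at 4.43, Col15a1 at 4.34 and Col6a3 at 4.31.

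Ratios were computed for 7 pairs of the more abundant chains. In each pair the ratio spanned a narrower range over the libraries than the level of either gene. That included Col3a1 with Col1a1, chains of different collagen types, at 1.67-fold against 5.80-fold and 3.48-fold for the genes. The ratio of Col1a1 to Col1a2, in CPM per kilobase, was 0.501, 0.532 and 0.405 in Naringin 1, 2 and 3, and 0.5004, 0.454 and 0.502 in Control 1, 2 and 3. As background, the type I protein is built from a pair of Col1a1 chains with a single Col1a2 chain. The transcript ratio spanned 1.31-fold over the 6 libraries, where Col1a1 itself spanned 3.48-fold. The ratio of Col4a1 to Col4a2 was 1.35, 1.23 and 1.45 with naringin, and 1.53, 1.24 and 1.54 in Control. The ratio of Col6a1 to Col6a2 was 1.42, 1.45 and 1.39 with naringin, and 1.34, 1.58 and 1.51 in Control, the narrowest of the 7 ratios computed at 1.18-fold. The ratio of Col6a3 to Col6a1 was wider, at 0.270, 0.201 and 0.244 with naringin, and 0.305, 0.151 and 0.135 in Control. Its lowest value was in Control 3, the library whose values fell most with transcript length. Col6a3 has a longer transcript (9001 bases) than Col6a1 (4100 bases). The next lowest value was in Control 2, the library with the highest slope on transcript length, at 0.063 per doubling. The part of length in this ratio was not tested. The ratio of Col3a1 to Col1a1 was 3.53, 2.93 and 2.12 with naringin, and 2.44, 2.24 and 2.58 in Control, highest in Naringin 1 and lowest in Naringin 3. For each ratio the group ranges overlapped.

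**Figure D5:**
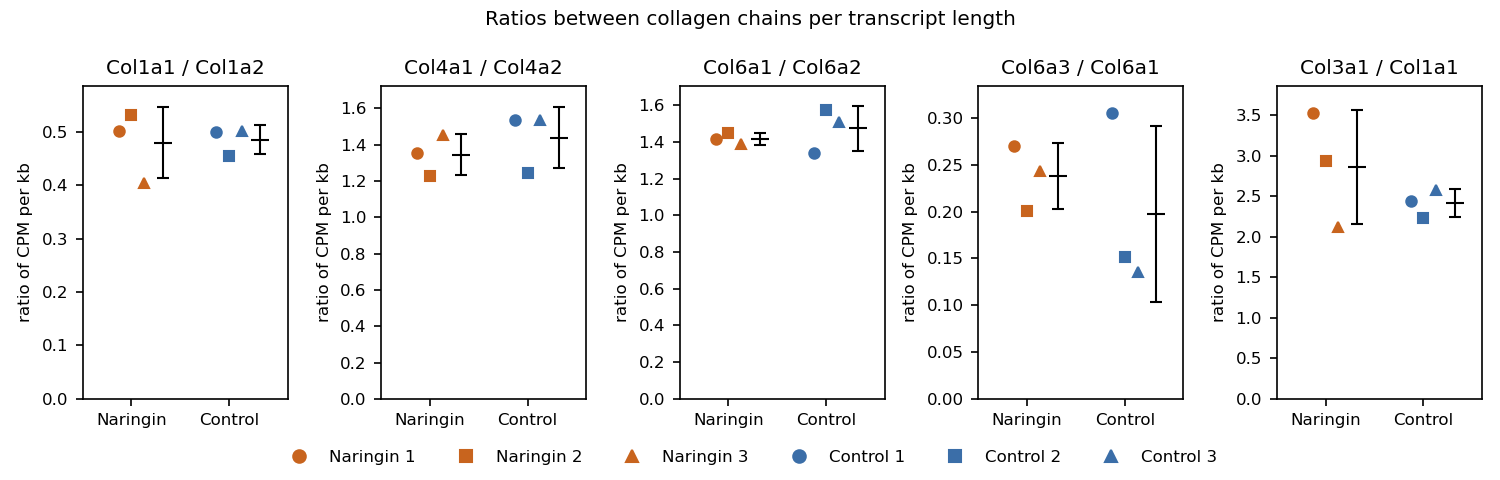
Ratio of CPM per kilobase of transcript between collagen chains in each library, with the symbol giving the replicate number and the black bar the mean ± SD of each group (n = 3). The Col1a1 to Col1a2 ratio stays between 0.405 and 0.532 and the Col6a1 to Col6a2 ratio between 1.34 and 1.58, while the Col3a1 to Col1a1 ratio runs from 2.12 in Naringin 3 to 3.53 in Naringin 1.

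The genes that make, hold and break collagen were read from the same fit, and 0 of them passed the adjusted threshold. Of 30 tested enzymes and chaperones of collagen processing, 23 had a log2 fold above 0 and 7 below, with a median of 0.07, and 0 had an unadjusted p under 0.05. P4hb, the shared subunit of prolyl 4-hydroxylase, averaged 283 ± 28.7 CPM with naringin and 273 ± 40.4 CPM in Control (SD, n = 3 each). The chaperone-like genes P3h4 and Fkbp14 had the smallest p in this list, with log2 folds of 0.29 ± 0.23 and 0.34 ± 0.28 (SE). Of 15 tested basement membrane proteins other than type IV collagen, 14 were above 0 and 1 below, with a median of 0.20, against 56.7% above 0 over all tested genes. Naringin 1 was the highest library in 14 of the 15, against 19.4% of all tested genes. Sparc, a collagen-binding matrix protein, had 432, 226 and 134 CPM with naringin, and 181, 144 and 230.2 CPM in Control, highest in Naringin 1 and lowest in Naringin 3 like Col3a1. Lama3, a laminin chain, had the smallest p of this list, with a log2 fold of 0.55 ± 0.28 (SE).

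Of 9 tested collagen receptors, 6 were above 0 and 3 below, with a median log2 fold of 0.14. Itgb1, the beta subunit of the collagen-binding integrins, had 398, 324 and 240.3 CPM with naringin, and 277, 288 and 285 CPM in Control. The receptor kinase Ddr2 and the inhibitory leukocyte receptor Lair1 had log2 folds of 0.28 ± 0.25 and 0.24 ± 0.26 (SE). Of 14 tested fibril-associated proteins, 7 were above 0 and 7 below, with a median of 0.01. The proteoglycan Dcn (decorin), which coats collagen fibrils, had 691, 355 and 137 CPM with naringin, and 234, 287 and 555 CPM in Control, and the matricellular protein Thbs1 and the proteoglycan Ogn had log2 folds of 0.91 ± 0.43 and -0.55 ± 0.40 (SE). Of 6 tested collagen-degrading proteases, 4 were above 0 and 2 below, with a median of 0.27; the membrane-bound collagenase Mmp14 averaged 149 ± 28.9 CPM with naringin and 127 ± 34.2 CPM in Control (SD, n = 3 each), and the neutrophil collagenase Mmp8 had a log2 fold of 0.55 ± 0.51 (SE). In these 5 lists, 0 genes had an unadjusted p under 0.05, against 1.43% of all tested genes.

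Markers of the cells that could carry the collagen were read beside it. The 5 markers of capsule and adventitial fibroblasts summed to 799, 423 and 187 CPM in Naringin 1, 2 and 3, and 290.5, 364 and 621 CPM in Control 1, 2 and 3. Dcn, given above as a fibril-associated protein, dominated this sum. By gene, Naringin 1 was highest in all 5 of these markers, against 19.4% of all tested genes. Naringin 3 was lowest in 4 of the 5, against 13.99%. The 4 markers of lymphatic endothelium summed to 269.8, 163 and 69.5 CPM with naringin, and 79.9, 149 and 147 CPM in Control. In both lists Naringin 1 was the highest and Naringin 3 the lowest library, as in the summed fibrillar collagens. Among the controls neither list followed the fibrillar sums: Control 1 was the lowest control in both lists, and Control 2 in the fibrillar sums. The sum of the 5 markers of fibroblastic reticular cells had neither Naringin 1 as the highest nor Naringin 3 as the lowest library. It came to 946, 1033 and 1124 CPM with naringin, and 806, 1159 and 1498 CPM in Control, dominated by the chemokine Ccl21a. By gene, Naringin 1 was highest in 3 of the 5, Pdpn, Pdgfrb and Bst1, against 19.4% of all tested genes. Naringin 3 was lowest in 2 of the 5, Pdpn and Pdgfrb, against 13.99%. Of the log2 folds of this list 2 were above 0 and 3 below, with a median of -0.02. They were -0.16 for the chemokine Ccl19, -0.16 for Ccl21a, -0.02 for Pdpn, 0.05 for Pdgfrb and 0.47 for Bst1 (unadjusted limma p of 0.0371 for Bst1).

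The remaining marker lists were read the same way. Smooth muscle markers summed to 137, 82.8 and 72.1 CPM with naringin, and 49.6, 75.5 and 74.3 CPM in Control. Acta2 had a log2 fold of 0.70 ± 0.25 (SE, unadjusted limma p of 0.0215). Myh11 was at 0.27 ± 0.30 and Tagln at -0.21 ± 0.26 (SE), and Cnn1 was not tested. Blood endothelium markers summed to 498, 431 and 403 CPM with naringin, and 388, 531 and 406 CPM in Control. Adipocyte markers summed to 19.4, 18.7 and 5.18 CPM with naringin, and 52.3, 20.5 and 12.6 CPM in Control. Naringin 3 was the lowest library, as in the summed fibrillar collagens, but Control 1 and not Naringin 1 was the highest. Skeletal muscle markers summed to at most 2.14 CPM in a library and keratinocyte markers to at most 4.06 CPM, nearly all of it Krt10, with Krt14 and Krt5 at 0 in most libraries. The 3 T cell markers summed to 522 to 687 CPM with naringin and 673 to 711 CPM in Control, and the 3 B cell markers to 1775 to 2177 CPM with naringin and 1686 to 1887 CPM in Control. The part of these cell types in the collagen levels was not tested.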

How the data were processed

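Per the submitters' processing notes, Trimmomatic 0.39, STAR 2.7.9a, featureCounts of Subread 1.6.0, edgeR 3.40.0 and the mouse build mm39 were used; the annotation and strand setting are named in no source used here, so reads of the 13 collagen genes with exon bases shared with another gene (GENCODE M21) may be split. The authors deposited CPM per gene, with each column summing to 1000000 and no further scaling. Whole reads were recovered from the steps, and 100.0% of the values above 0 were whole within 0.01 of a read.

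Here, genes averaging 1 CPM or more over the libraries were tested on log2(CPM + 1), which understates the fold of low genes, with limma 3.58.1 in R 4.3.3 (mean-variance trend, robust, 2-sided, Benjamini-Hochberg over 14873 genes, threshold 0.05). Count tests on the recovered reads used edgeR 4.0.16 and DESeq2 1.42.0. The steps were tested on simulated reads, drawn independently for each gene without a shift of many genes in a single library. That test does not cover a spread such as that of the collagens between Naringin 1 and Naringin 3. Principal transcript lengths came from GENCODE M21 (93.9% of tested genes, all 29 tested collagens). The members, classes and lists were chosen with earlier results of these data known. Named were the 3 most abundant members of each class or subclass of the others, the 3 smallest p in each direction and any with an unadjusted p under 0.05; from each other list, the most abundant member and the 2 smallest p. A gene that this rule names is not reported here. Alternatives were other pseudocounts, filters, scalings, a replicate block, a length and base composition correction and leaving out each library.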

Additional observations from a re-analysis of the deposited data

How the results depend on the processing

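Over all alternatives, 0 collagen genes passed. Genes called over the whole table were 0 except for 3 by DESeq2 and 1 without Control 3. Collagens with an unadjusted p under 0.05 numbered 2 after the length and base composition correction (Col4a2 and Col9a3), against 1.58% of all genes tested there, 2 with no filter on low values (Col11a1 and Col8a2), against 2.14%, 0 with a filter at 5 CPM, against 1.29%, and 0 to 4 when single libraries were left out. The median log2 fold of the tested collagens ran from -0.15 to 0.50 over the left-out libraries, that of the fibrillar class from -0.19 to 0.57, of the beaded filament class from -0.25 to 0.66 and of the other class from -0.064 to 0.26. The basement membrane median stayed between 0.10 and 0.63 over the left-out libraries. With no filter, which adds Col4a3, Col4a4 and Col4a6, it was 0.067, against 0.40 in the main fit. The ratio of summed CPM ran from 0.932 to 1.63 for all collagens, from 0.915 to 1.73 for the fibrillar, 0.837 to 1.62 for the beaded filament and 0.956 to 1.24 for the other class. Of the 29 tested collagens, 16 changed sign without Naringin 1 and 2 to 6 without another library. The log2 folds of those that changed sign ran from -0.48 to 0.50 for Col12a1, -0.071 to 0.40 for Col14a1, -0.058 to 0.20 for Col15a1, -0.17 to 0.28 for Col16a1, -0.40 to 0.47 for Col18a1, -0.21 to 0.67 for Col1a1, -0.15 to 0.59 for Col1a2, -0.17 to 1.09 for Col3a1, -0.32 to 0.57 for Col6a1, -0.27 to 0.61 for Col6a2, -0.061 to 0.90 for Col6a3, -0.13 to 0.31 for Col6a4, -0.24 to 0.71 for Col6a5, -0.27 to 1.15 for Col6a6, -0.17 to 0.55 for Col5a1, -0.25 to 0.69 for Col5a2, -0.61 to 0.17 for Col5a3, -0.075 to 0.16 for Col27a1 and -0.083 to 0.11 for Col20a1. The difference in chain ratio, Naringin minus Control, ran from -0.032 to 0.031 for Col1a1 to Col1a2 and from -0.049 to 0.033 for Col5a1 to Col5a2. Col12a1 was at 0.11 in DESeq2 and 0.12 in edgeR, Col5a3 at 0.032 in DESeq2 and 0.053 in edgeR, and Col16a1 at -0.0073 with upper-quartile scaling; these causes were not tested.

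With the replicate block, 0 genes and 0 collagens passed, and Col4a2 in place of Col9a3 had an unadjusted limma p under 0.05, at 0.0371 against 0.0878 without it. Same-numbered libraries did not deviate together (correlations of -0.26, -0.019 and -0.27). With 3 libraries a group, these correlations cannot decide whether the numbers pair the samples. With 3 samples a group, a p that misses the threshold does not show equal levels, and genes under 1 CPM rest on few reads. Without Control 3, 1391 genes had an unadjusted limma p under 0.05, against 213 with it.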
